A study of Mus musculus with 14 samples.

Results

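The glandular kallikreins of mouse liver considered here are Klk1, Klk1b3, Klk1b4, Klk1b5, Klk1b8, Klk1b9, Klk1b21, Klk1b22 and Klk1b26, which make 9 of the 19751 genes that the array probes could be named for. The members were chosen by their measured ratio of male over female liver at 3 wk, which was already raised, so the ratios at 3 wk describe that choice and carry no test. The earlier list behind the choice had also required a male bias at 8 wk, and the 8 wk sex ratios are treated in the same way. All 9 members had a probe, and Klk1b26 had a second one, giving 10 probes. The members are close relatives, so that 1 probe may record the transcripts of more than 1 of them.

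Tissue kallikreins are secreted trypsin-like serine proteases. Klk1 releases kinins from kininogens, and the mouse has in addition a cluster of Klk1b genes whose products include subunits of the nerve growth factor complex (Klk1b3, the gamma subunit, and Klk1b4, the alpha subunit), epidermal growth factor-binding proteins (Klk1b9 and Klk1b22) and a prorenin-converting enzyme (Klk1b26). They are best known from the granular convoluted tubule of the mouse submandibular gland, where most of them are raised by androgens. Liver is not a major site of their expression, and it supplies the kininogens on which kallikreins act.

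Liver RNA of CD-1 mice was compared in 7 sets of hybridizations, male over female at 3 wk, at 4 wk and at 8 wk (M3/F3, M4/F4 and M8/F8) and 8 wk over the younger age in males (M8/M3 and M8/M4) and in females (F8/F3 and F8/F4). Each set had 2 arrays, 14 in all, with other pools and reversed dyes on the second array, and each pool held liver RNA of 5 mice at 3 wk and of 6 mice at 4 and 8 wk. The labels name no treatment, and the groups differed by sex and age. Pools are named here after the number of the array, and whether pool 1 of a group was the same RNA in all its comparisons is taken from that number. Whole liver was used, and fewer cells of a type cannot be told apart from less RNA per cell.

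On the 14 arrays 55.2% to 77.2% of the spots (median 66.5%) were well above background, a flag that the scanner software sets on spots brighter than their surroundings, and no spot was saturated. The labelled tissue was checked against hepatocyte markers, of which 9 of 9 with a probe were well above background on every channel. Genes of the X and Y chromosomes that mark sex lay on the labelled side in 15 of 15 comparisons, on both arrays of each. Each array gives 2 channels, 1 for each dye, so a gene was read in 28 channels.

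In the mouse genome the members lie within 1 cluster on chromosome 7. Between Klk1b8 at one end and Klk1 at the other the RefSeq annotation of GRCm38.p6 placed 24 genes, of which 14 were protein-coding. These were the 9 members and 5 further Klk1b genes, Klk1b1, Klk1b11, Klk1b16, Klk1b24 and Klk1b27. Klk1b24, Klk1b3, Klk1b4 and Klk1b5 follow each other, with no other coding gene before Klk1. The RefSeq promoter table had 1 window for each of the 9 members, reaching from 250 bases before the annotated start to 50 bases after it, all on the plus strand. The stretches of 80 bases below let the sequence that the Klk1b members have in common be seen, including those with dim probes. The stretch of Klk1 is cut at another place, and only its last part resembles the first part of that of Klk1b3. The stretches end 4 bases past the sequence TTTAAA where a window holds it before the start, and otherwise at the start. Capitals mark TTTAAA and the androgen receptor half-site on either strand.
Klk1, chr7:44225280-44225359: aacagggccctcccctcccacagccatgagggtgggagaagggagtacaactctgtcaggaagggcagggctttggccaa
Klk1b3, chr7:44198108-44198187: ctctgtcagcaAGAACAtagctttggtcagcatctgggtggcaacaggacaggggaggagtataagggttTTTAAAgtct
Klk1b4, chr7:44207315-44207394: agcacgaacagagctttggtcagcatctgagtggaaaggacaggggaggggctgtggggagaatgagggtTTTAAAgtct
Klk1b5, chr7:44216362-44216441: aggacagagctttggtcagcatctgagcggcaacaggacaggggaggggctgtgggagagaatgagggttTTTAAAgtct
Klk1b8, chr7:43950552-43950631: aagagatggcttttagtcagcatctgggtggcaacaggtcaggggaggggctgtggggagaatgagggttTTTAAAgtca
Klk1b9, chr7:43975958-43976037: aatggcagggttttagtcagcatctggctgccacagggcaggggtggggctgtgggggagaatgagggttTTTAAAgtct
Klk1b21, chr7:44102212-44102291: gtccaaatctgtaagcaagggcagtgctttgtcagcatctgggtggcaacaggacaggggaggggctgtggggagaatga
Klk1b22, chr7:44112563-44112642: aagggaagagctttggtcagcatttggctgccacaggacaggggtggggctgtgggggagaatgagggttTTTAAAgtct
Klk1b26, chr7:44012582-44012661: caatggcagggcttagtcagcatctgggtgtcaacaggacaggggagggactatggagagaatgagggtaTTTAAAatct

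Upstream of the start the 36 pairs of members were 76.6% to 92.6% identical (median 83.7%) over local alignments of 145 to 247 bases. Klk1b4 and Klk1b5 were the closest at 92.6%, and Klk1 and Klk1b8 the farthest at 76.6%. TTTAAA stood on the gene strand in 8 of the 9 members' windows, in the windows of all 5 other Klk1b genes, and in 13.2% of all 32851 promoter windows of the table. It was searched for after the sequences had been read. The exception was Klk1, and in Klk1b21 it began 4 bases after the annotated start. The androgen receptor half-site TGTTCT, on either strand, was found in 1 member, Klk1b3, and in 19% of all windows. The STAT5 motif TTCNNNGAA, read on both strands, was found in 0 of 9 members and in 8.3% of all windows. The TATA box TATAAA on the gene strand was found in 0 of 9 and in 8.32% of all windows. A match or its absence describes these letters in these windows and says nothing of the factors. Klk1b9 and Klk1b21, the members with dim probes, held TTTAAA as did the brightly measured Klk1b genes.

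Of the 9 members, 7 were well above background in all 28 channels. Their probes were Klk1 (A_51_P245414), Klk1b3 (A_51_P413147), Klk1b4 (A_51_P295034), Klk1b5 (A_55_P2002933), Klk1b8 (A_51_P155503), Klk1b22 (A_55_P2112986) and Klk1b26 (A_55_P2025006). These were moderate signals, with processed intensities of 53.4 to 468 and mean levels at the 54.6th to 63.5th percentile of all probes. The error that the software modelled for a single ratio of these probes was 0.20 to 0.25 on the log2 scale. Klk1b21 (A_66_P136971) was well above background in 22 channels, the second probe of Klk1b26 (A_55_P2001474) in 19, and Klk1b9 (A_51_P221753) in 1. For Klk1b9 the signal was not well above background in nearly every pool, and no ratio is given.

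At 3 wk, before puberty, the 7 brightly measured members were higher in male liver on both arrays. Klk1 was 0.86 and 0.55 higher on the log2 scale on the replicate 1 and replicate 2 arrays, and Klk1b4 was 0.78 and 0.57 higher. For Klk1b3, the nerve growth factor gamma subunit, the difference was 0.80 and 0.49. All of these lie above 0 on both arrays and below a log2 difference of 1. Klk1b8 gave 0.74 and 0.55, Klk1b26 gave 0.76 and 0.56, and Klk1b5 gave 0.59 and 0.48. Klk1b22, which encodes an epidermal growth factor-binding protein, was spread most widely at 0.99 and 0.30. On every one of these 7 probes the replicate 1 array gave the higher value. The fitted expression ratios were 1.45 to 1.63 (median 1.56). By the thresholds used here (limma, adjusted p below 0.05, ratio above 1.5 or below the inverse of that, and a group well above background on both arrays), 5 of the 9 members were called higher in males, beside 0.168% of all probes. This share follows from the choice of the family. The called members just inside the fold threshold were Klk1b3, Klk1b8 and Klk1b22, each with a ratio of 1.56, and Klk1b5 lay just outside with 1.45. Klk1b5 and Klk1b26, the latter with 1.58, also missed the adjusted threshold. Without the replicate 1 array the count was 1, and with the replicate number as a block it was 3.

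**Figure D1:**
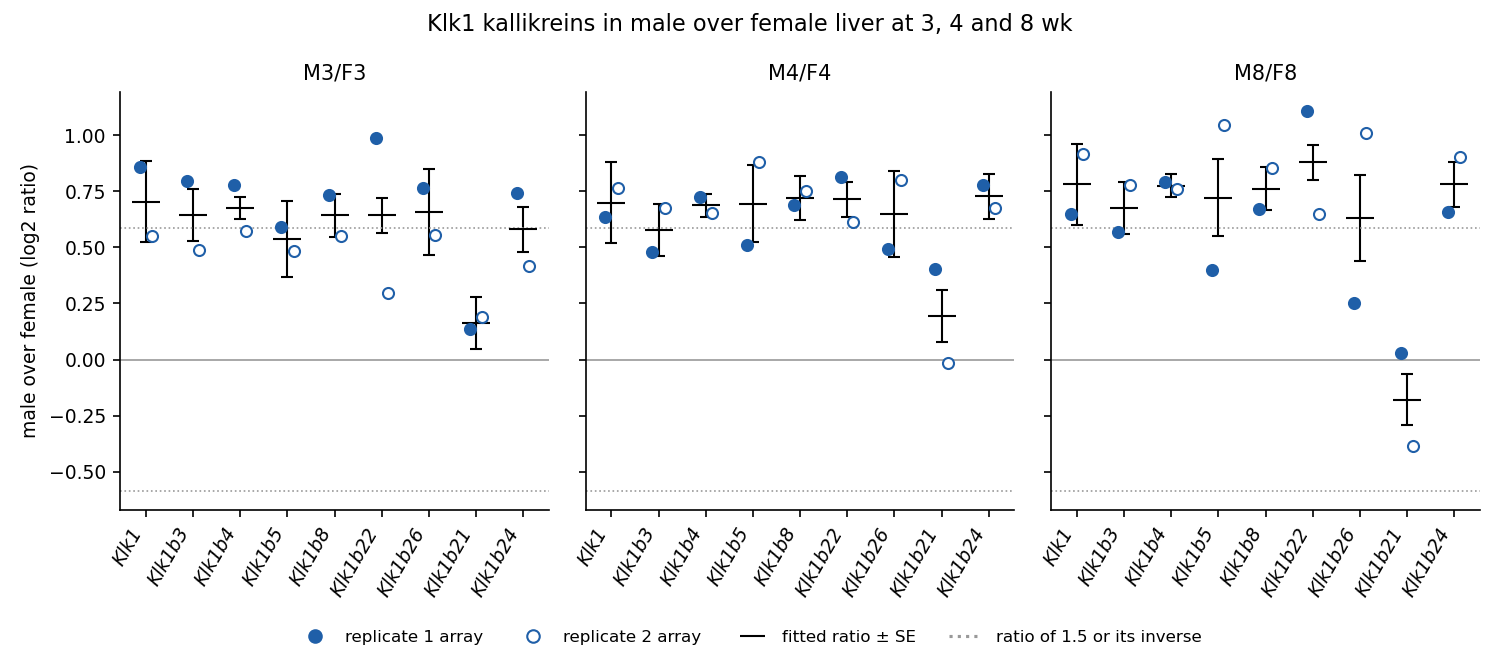
Log2 ratio of male over female liver at 3, 4 and 8 wk for 8 members and for Klk1b24, with the replicate 1 array as a filled point, the replicate 2 array as an open point, and the limma estimate with its standard error as a bar. For 7 members and Klk1b24 both points lie above 0 at each age, while Klk1b21 has points between -0.39 and 0.40, on both sides of 0, and Klk1b9, not well above background, is not drawn.

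At 4 wk, in pools that share no mice with the 3 wk arrays, the male bias was present again and was of similar size. The 7 members lay 0.58 to 0.72 above female liver on the log2 scale (median 0.70, a ratio of 1.62), beside a median of 0.0047 over all 22139 probes tested. By limma with Benjamini-Hochberg adjustment over all probes and comparisons, 5 of 9 members were called higher in males, against 0.551% of all probes. Both arrays were higher in males for 7 members, against 30.1% of all probes.

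Klk1b4 gave 0.72 and 0.65 on its replicate arrays at 4 wk, with a fitted log2 ratio of 0.69 ± 0.05 (SE, limma adjusted p = 0.00044). Klk1b8 gave 0.69 and 0.75, which were almost equal, and a fitted value of 0.72 ± 0.10 (adjusted p = 0.00412). Klk1b22 gave 0.81 and 0.61, closer together than at 3 wk, with 0.71 ± 0.08 (adjusted p = 0.00176). Klk1, the kinin-releasing enzyme, gave 0.63 and 0.77 and passed narrowly, with 0.70 ± 0.18 (adjusted p = 0.0455). Klk1b5, another member of the cluster, gave 0.51 and 0.88 and 0.70 ± 0.17 (adjusted p = 0.0388), so that its arrays differed by more than those of Klk1b4 and Klk1b8. Of the members not called, Klk1b3 gave 0.48 and 0.67 with 0.58 ± 0.11 and an adjusted p of 0.0177, and its ratio of 1.49 was below the threshold of 1.5. Klk1b26 gave 0.49 and 0.80 with a ratio of 1.57 and an adjusted p of 0.0731. The count of 5 depended on single arrays, since 3 members were called without the replicate 1 array and 2 without the replicate 2 array. It was 2 with the replicate number as a block.

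At 8 wk the fitted ratios of the 7 members were 1.55 to 1.84 (median 1.70), and both arrays of each were again higher in males. Klk1b22 had the highest ratio, with 1.11 and 0.65 on the log2 scale, and Klk1b4 was steady at 0.79 and 0.76. Klk1 gave 0.65 and 0.91, Klk1b3 gave 0.57 and 0.78, and Klk1b8 gave 0.67 and 0.85. The arrays were farthest apart for Klk1b5, with 0.40 and 1.05, and for Klk1b26, with 0.25 and 1.01. By the thresholds, 6 of 9 members were called higher, beside 2.81% of all probes, and Klk1b26 was not. The count was 3 when either of the arrays was left out. This comparison was among those that picked the family and carries no test.

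Whether the bias grew between 4 and 8 wk was tested as the change from 4 to 8 wk in males minus that in females. This uses no 3 wk pool, but it uses the M8 and F8 pools, whose ratio entered the choice of the family. The interaction was called for 0 of 9 members by limma, against 1.34% of all probes in either direction, and 0 members were below an unadjusted p of 0.05 or called by the error-weighted average. The estimates of the 7 members lay between -0.03 and 0.10 (median 0.02) on the log2 scale, with standard errors of 0.07 to 0.27. From 3 to 8 wk the interaction was -0.04 to 0.34 (median 0.13) and was again called for 0 of 9 members, against 3.22% of all probes. Here 2 members were below an unadjusted p of 0.05 and 0 were called by the error-weighted average. Klk1b4 had an interaction of 0.27 ± 0.07 (limma adjusted p = 0.0932) and Klk1b22 one of 0.34 ± 0.11 (adjusted p = 0.154). The 3 to 8 wk test uses the 3 wk pools by which the family was chosen. Its M8/M3 arrays were on slides 1 and 2, scanned on day 1, and its F8/F3 arrays on slides 3 and 4, scanned on day 2, so that this difference between the sexes and slide or scan day cannot be told apart.

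From 3 to 8 wk the members had somewhat lower values in males. On the M8/M3 arrays all 7 were below 0 on both arrays, against 37.2% of all probes, with fitted differences of -0.41 to -0.26 (median -0.28) on the log2 scale. Klk1 gave -0.32 and -0.33, and Klk1b3 gave -0.33 and -0.39, so the arrays of these members were close. Klk1b22 gave -0.59 and -0.22 and had the lowest fitted value of the 7, -0.41. No member reached the fold threshold, so that 0 of 9 were called lower by limma, against 8.56% of all probes. At an unadjusted p below 0.05 there were 4 members, and the error-weighted average called 0. The adjusted p was 0.0151 for Klk1b4, which gave -0.32 and -0.21, and 0.0152 for Klk1b22. The 3 wk pools of this comparison are also those of M3/F3, so that a high value of the M3 pools enters both.

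In females the difference from 3 to 8 wk was -0.75 to -0.25 (median -0.44), and the arrays disagreed for part of the members. Klk1b4 gave -0.48 and -0.60 with -0.54 ± 0.05 (limma adjusted p = 0.00103), and its ratio of 0.688 did not pass the fold threshold. Klk1b22 gave -0.97 and -0.53 and was the member called lower, with -0.75 ± 0.08 (adjusted p = 0.00146), making 1 of 9 against 5.52% of all probes. Klk1b3 gave -0.27 and -0.71 and Klk1b8 gave -0.24 and -0.64, on the same side of 0. Klk1 gave 0.16 and -0.74, Klk1b5 gave 0.25 and -0.75, and Klk1b26 gave 0.20 and -0.70, so that these 3 were on opposite sides of 0 on their arrays. Both arrays were lower for 4 members, against 35.1% of all probes. Leaving out the replicate 1 array raised the count of calls to 4, and it was 0 with the replicate number as a block. These arrays share the F3 pools with M3/F3.

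From 4 to 8 wk the members showed no called change in either sex. In males the 7 members lay between -0.06 and 0.00 (median -0.03), with 0 of 9 called lower by limma against 5.43% of all probes. In females they lay between -0.10 and 0.01 (median -0.08), with 0 of 9 called lower against 2.98% of all probes. In each of these comparisons 0 members were below an unadjusted p of 0.05 and 0 were called by the error-weighted average. Klk1b4, the member with the smallest standard error, gave -0.05 and 0.05 in males and -0.16 and -0.04 in females. The change from 3 to 4 wk was not hybridized directly. Taken through the shared 8 wk groups it was -0.26 at the median of the 7 members in males and -0.40 in females. Both values run through the M3 and F3 pools by which the family was chosen.

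**Figure D2:**
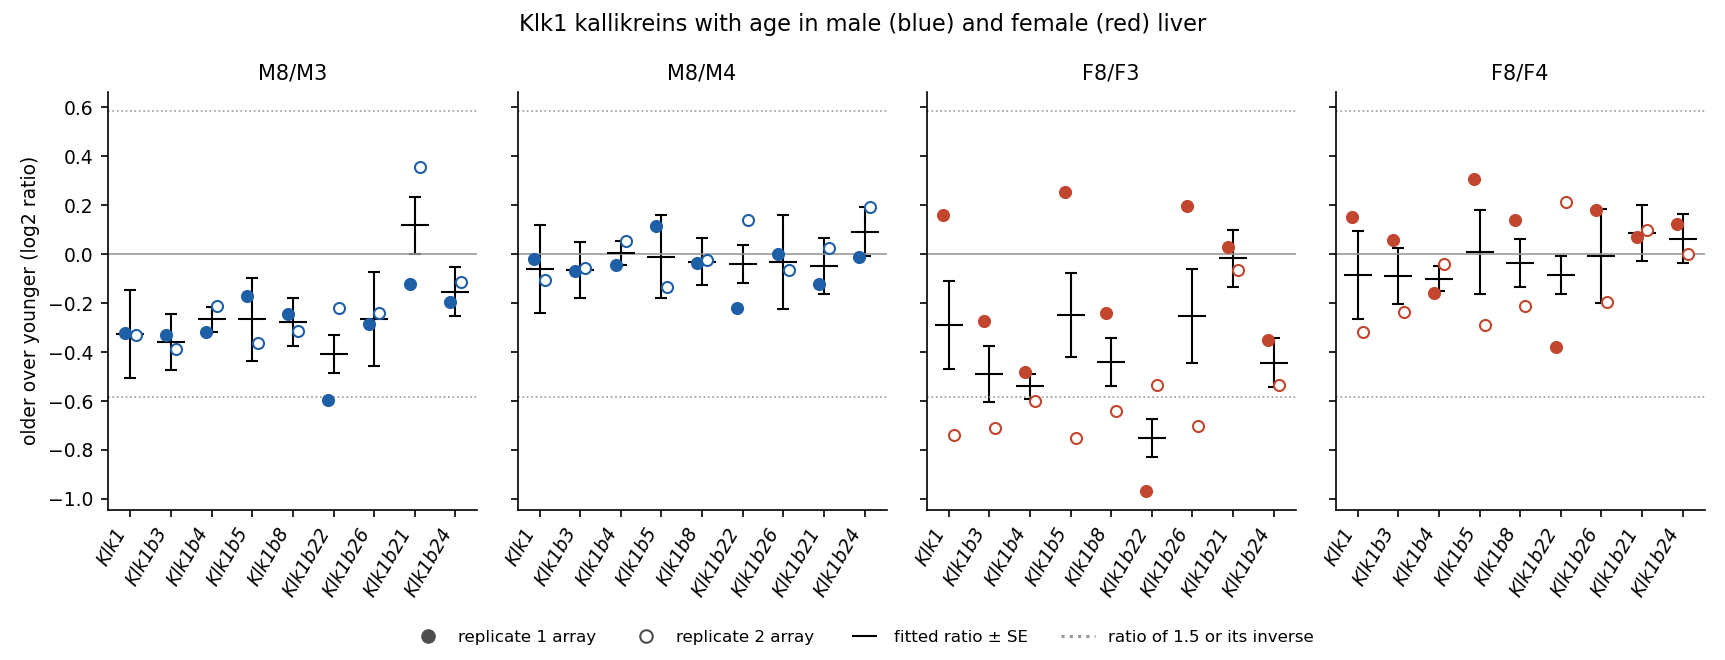
Log2 ratio of 8 wk over the younger age in male (blue) and female (red) liver for 8 members and Klk1b24, with filled points for replicate 1 arrays, open points for replicate 2 arrays and bars for the limma estimate with its standard error. In M8/M3 the points of the 7 brightly measured members lie below 0 and in M8/M4 near 0. Among these 7, the points of Klk1, Klk1b5 and Klk1b26 lie on both sides of 0 in F8/F3, and those of all but Klk1b4 do in F8/F4. Klk1b21 and Klk1b24 lie above 0 on both F8/F4 arrays.

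The level of each probe was also read per channel, as the log2 of the processed intensity after the arrays had been brought to a common distribution of mean intensity. Levels of different probes are not compared. Klk1 was at 7.17 and 7.16 in the M3 pools, 6.74 and 6.81 in the M4 pools and 6.93 and 6.82 in the M8 pools. In females it was at 6.17 and 6.47 at 3 wk, 6.03 and 6.06 at 4 wk and 6.29 and 5.78 at 8 wk. No female pool reached the lowest male pool. Klk1b4 was at 8.74 and 8.73 in M3 and at 8.02 and 8.09 in F3, and at 8.37 and 8.28 in M4 and 7.62 and 7.49 in F4. At 8 wk it was at 8.39 and 8.34 in males and 7.55 and 7.38 in females, so that the M8 pools lay close to the M4 pools. For all 7 members every male pool was above every female pool, and M3 had the highest mean level. The family was chosen by sex ratios of the 3 wk and 8 wk pools, so this order follows in part from that choice. The smallest gap was that of Klk1b22, with the lowest male pool at 6.89 and the highest female pool at 6.81. The order of the M4 and M8 groups, and of the F4 and F8 groups, changed from member to member and lay within the difference between pools for most of them. The summed level of the 9 members was 1661 to 1741 in the 4 channels of M3 and 1032 to 1171 in those of F3, and at 4 wk 1306 to 1440 in males and 742 to 895 in females. At 8 wk it was 1283 to 1453 over 6 channels in males and 665 to 928 in females.

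**Figure D3:**
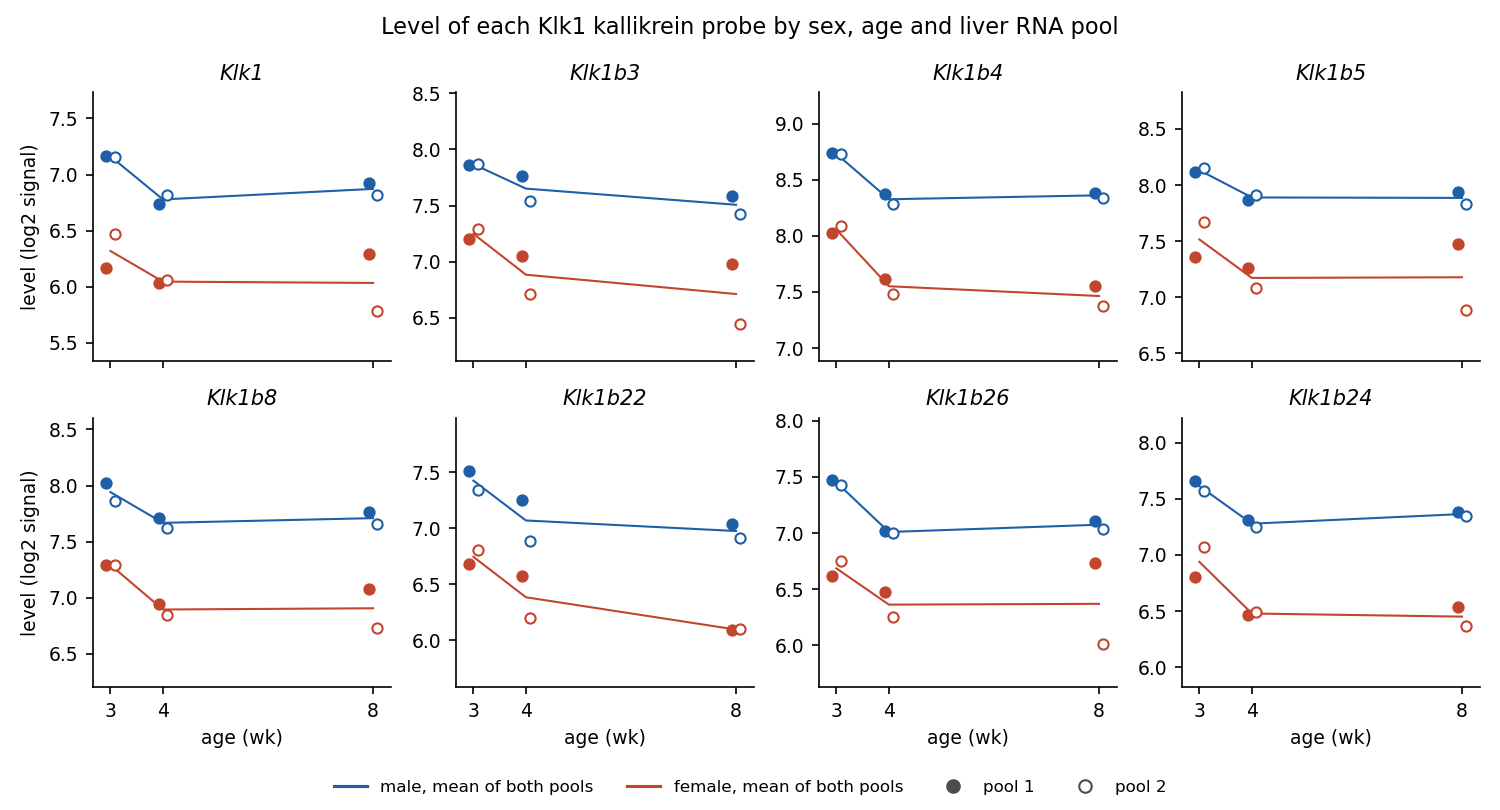
Level of the probes of the 7 brightly measured members and Klk1b24, as log2 processed intensity, at 3, 4 and 8 wk in male (blue) and female (red) liver, with pool 1 filled, pool 2 open and lines through the mean of both pools. Each panel spans the same range in log2 units around its own mean. For these genes male pools lie above female pools at every age, which for the members at 3 and 8 wk follows in part from their choice. The F8 pools of Klk1b26 (6.73 and 6.01) and Klk1b5 (7.47 and 6.89) are the most widely separated of those drawn.

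Among themselves the members differed in how the F8 pools compared. On the 3 comparisons with 8 wk females, read as F8 over its partner, the replicate 1 array minus the replicate 2 array was 1.01, 0.60 and 0.65 for Klk1b5 (over F3, F4 and M8). For Klk1b26 the same differences were 0.90, 0.37 and 0.76, and for Klk1 they were 0.90, 0.47 and 0.27. These 3 members thus had more signal in F8 pool 1 than in F8 pool 2 on all 3 comparisons. In these ratios Klk1b3 (mean 0.31) and Klk1b8 (mean 0.31) went the same way by less, Klk1b4 was near 0 (mean -0.01), and Klk1b22 went the opposite way with a mean of -0.49. By level per pool the picture differed, since the F8 pools 1 and 2 of Klk1b22 were almost equal at 6.09 and 6.10. Those of Klk1b4 were at 7.55 and 7.38, and those of Klk1b3 at 6.98 and 6.45. The F8 pool 1 was labelled green and the F8 pool 2 red throughout, so that pool and dye cannot be told apart from these arrays alone. M8 was labelled in the same way against M3 and M4, and there the differences were 0.01 and 0.09 for Klk1, 0.19 and 0.25 for Klk1b5 and -0.04 and 0.06 for Klk1b26. For Klk1b22 they were -0.38 and -0.36, on the same side of 0 as its F8 values. With each comparison read as red over green, Klk1b22 was higher in red on 7 of 7 comparisons (mean 0.22), while Klk1 and Klk1b5 were higher in green on 6 of 7 (means -0.11 and -0.21). The dye term of the fit carries the mean of these differences.

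**Figure D4:**
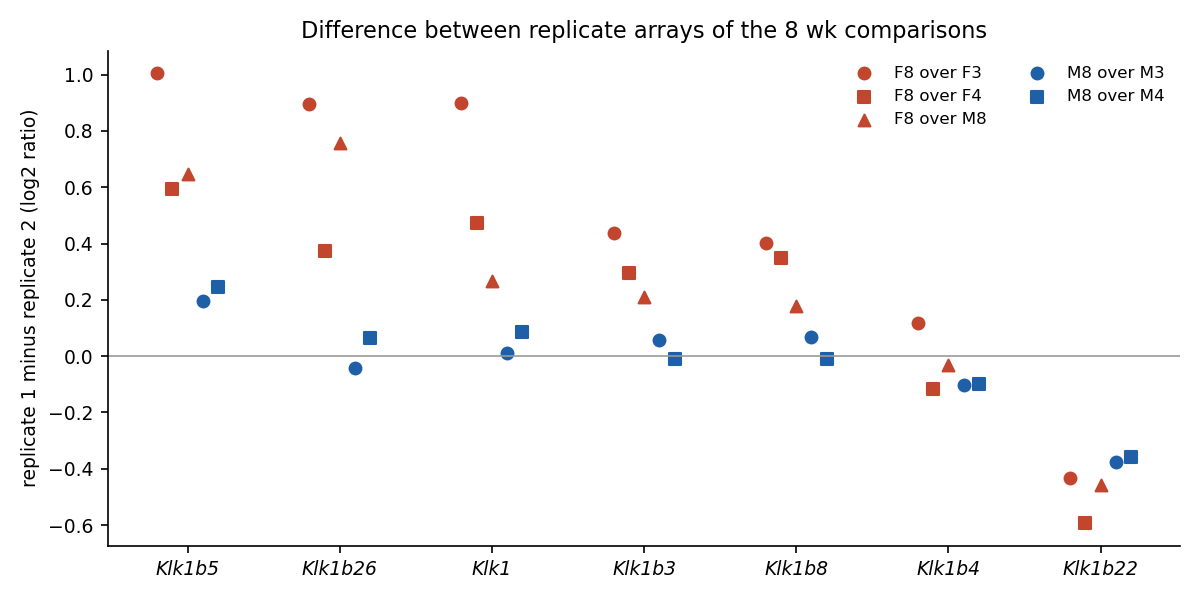
Replicate 1 array minus replicate 2 array, in log2 ratio, for the 7 brightly measured members in the comparisons of F8 (red) and of M8 (blue) with the same dye layout. Klk1b5, Klk1b26 and Klk1 lie above 0 on the F8 comparisons and near 0 or up to 0.25 on the M8 comparisons, whereas Klk1b22 lies below 0 on all of them.

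Over all 14 arrays the closest members were Klk1b3 and Klk1b8, whose ratios differed by a root mean square of 0.09 on the log2 scale, and Klk1b5 and Klk1b26, with 0.10. The farthest were Klk1b5 and Klk1b22, with 0.51. The distance between Klk1 and Klk1b8 was 0.12, and Klk1b22 was nearest to Klk1b4 at 0.23. These are descriptions over arrays that share pools, and probes of related genes that respond to 1 transcript would also lie close together. Klk1b3 and Klk1b8 lie near opposite ends of the cluster, and Klk1b4 and Klk1b24, at 0.12, are near each other in it.

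The remaining probes of members were dim. Klk1b21 gave 0.14 and 0.19 at 3 wk, 0.40 and -0.02 at 4 wk and 0.03 and -0.39 at 8 wk in male over female liver. It was not called at 4 wk (limma adjusted p = 0.369), and its pools of both sexes overlapped. The dimmer probe of Klk1b26 gave 0.89 and 0.41 at 3 wk and 0.27 and 0.53 at 4 wk, above 0 like the brighter one. At 8 wk it gave 0.07 and 0.40 and was well above background in only part of the channels.

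Klk1b24, a coding gene next to Klk1b3, is not among the 9 members. It was well above background in all 28 channels and gave 0.74 and 0.42 at 3 wk, 0.78 and 0.68 at 4 wk and 0.66 and 0.90 at 8 wk. At 4 wk it was called higher in males (0.73 ± 0.10, limma adjusted p = 0.00448), and it was called at 8 wk with a ratio of 1.72. At 3 wk its ratio of 1.495 lay just under the fold threshold and it was not called. From 3 to 8 wk in males its value of -0.15 lay above those of the 7 members. Of the other 4 Klk1b genes with a probe, Klk1b11 and Klk1b16 were well above background in no channel, Klk1b1 in 1 and Klk1b27 in 5. Klk1b27 was called higher in F8/F4, which it could pass only through the group where it is high, so no fold is given, and it is named after its value was seen. Of 12 kallikrein-related peptidases outside the cluster, 0 were well above background in every channel and 0 were called in a sex comparison. Klk8, the exception with age and named after its value was seen, was lower in M8/M3 by -0.96 ± 0.10 (adjusted p = 0.0016).

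Substrates and partners of the kallikreins were read from lists of known genes. Of 15 genes of the kinin pathway, 11 were well above background in every channel and 0 were called in any of the 3 sex comparisons. Kng1 and Kng2, the kininogens, are named after their values were seen. They were lower in male liver at 8 wk, at -0.54 ± 0.04 (limma adjusted p = 0.000383) and -0.50 ± 0.05 (adjusted p = 0.00125), short of the fold threshold. The 9 hepatocyte markers had values of -0.57 (Alb) to 0.40 (Apoa1) in this comparison, with a median of -0.19 and 0 called. Both kinin receptors, Bdkrb1 and Bdkrb2, were well above background in no channel. Mme, neprilysin, which degrades kinins, rose with age in both sexes, by 1.11 ± 0.25 in M8/M3 (limma adjusted p = 0.0282) and by 0.99 ± 0.25 in F8/F3 (adjusted p = 0.0416). Of 15 inhibitors and partners, 12 were well above background in every channel, 0 were called at 3 or 4 wk between the sexes, and 2 were called lower in male liver at 8 wk. These were Spink5, a serine protease inhibitor, at -1.39 ± 0.15 (adjusted p = 0.00166), and Ren1, renin, at -0.61 ± 0.06 (adjusted p = 0.00133). Spink5 was also lower with age in males, by -0.99 in M8/M3 (adjusted p = 0.00615) and by -0.88 in M8/M4 (adjusted p = 0.00966). Spink1, a trypsin inhibitor, was called lower on all 4 age comparisons, with -2.87 from 3 wk and -1.54 from 4 wk in males and -3.19 and -1.70 in females. The medians of the 7 kallikreins in these comparisons were -0.28 from 3 wk and -0.03 from 4 wk in males and -0.44 and -0.08 in females.

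Kallikreins are abundant in salivary gland, pancreas and kidney, and markers of these tissues were read beside them. Of 14 salivary gland markers, 2 (Amy1 and Egf) were well above background in every channel, 5 (Smgc, Prol1, Bpifa2, Dcpp2 and Smr3a) in none, and 0 were called at 3 or 4 wk between the sexes. Their summed level was 25370 to 28140 in M4 and 32880 to 43290 in F4, which was almost wholly that of Amy1 and says little of the other markers. The ranges overlapped at 3 wk (30520 to 32860 in M3 and 28420 to 36640 in F3) and at 8 wk (26740 to 40360 in M8 and 36580 to 42150 in F8). Of 11 kidney markers, 1 was well above background in every channel and 0 were called between the sexes, and the sum was 173 to 285 in M4, a range that overlapped that of F4. Mast cell and granulocyte markers summed to 300.0 to 1001 in M4 and 340.1 to 1001 in F4. One of 9 such markers, Tpsb2, a mast cell tryptase, was called higher in male liver at 8 wk (1.86 ± 0.11, limma adjusted p = 0.000222), and 0 were called at 3 or 4 wk. Of 5 Leydig and steroidogenic markers 0 were called higher in male liver, and Cyp17a1 was lower at 4 wk (-1.58 ± 0.17, adjusted p = 0.00171) and 8 wk, as was Hsd3b1 at 8 wk (-4.37 ± 0.43, adjusted p = 0.00124).

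The exocrine pancreas markers differed between the M3 pools. Of 17 markers with a probe only 3 were well above background in every channel, so most marker ratios come from dim probes. On the replicate 1 array of M3/F3, 9 of 17 markers were over 1 log2 unit higher in males, reaching 3.87 for a single marker. On the replicate 2 array 1 of 17 was. The members' median was 0.78 on the first of these arrays and 0.55 on the second, and the part of the marker signal in this difference was not tested. On the M8/M3 arrays the marker median was -1.98 on replicate 1 and 1.00 on replicate 2, and that of the members was -0.32 and -0.31, almost the same on both. On the M4/F4 arrays the marker median was 0 on both, with 0 markers over 1 log2 unit higher, and the members' medians were 0.63 and 0.75. A ratio of exactly 0 occurred on no spot well above background in both channels, so this marker median is the value of dim probes. The summed marker level was 660 to 748 in M4 and 648 to 755 in F4, and 1012 to 1443 in M3 against 956 to 1093 in F3. At 8 wk it was 717 to 920 in males and 599 to 696 in females, where the ranges did not overlap and 1 marker, Ctrb1, was called higher in males (0.59 ± 0.15, limma adjusted p = 0.0386).

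**Figure D5:**
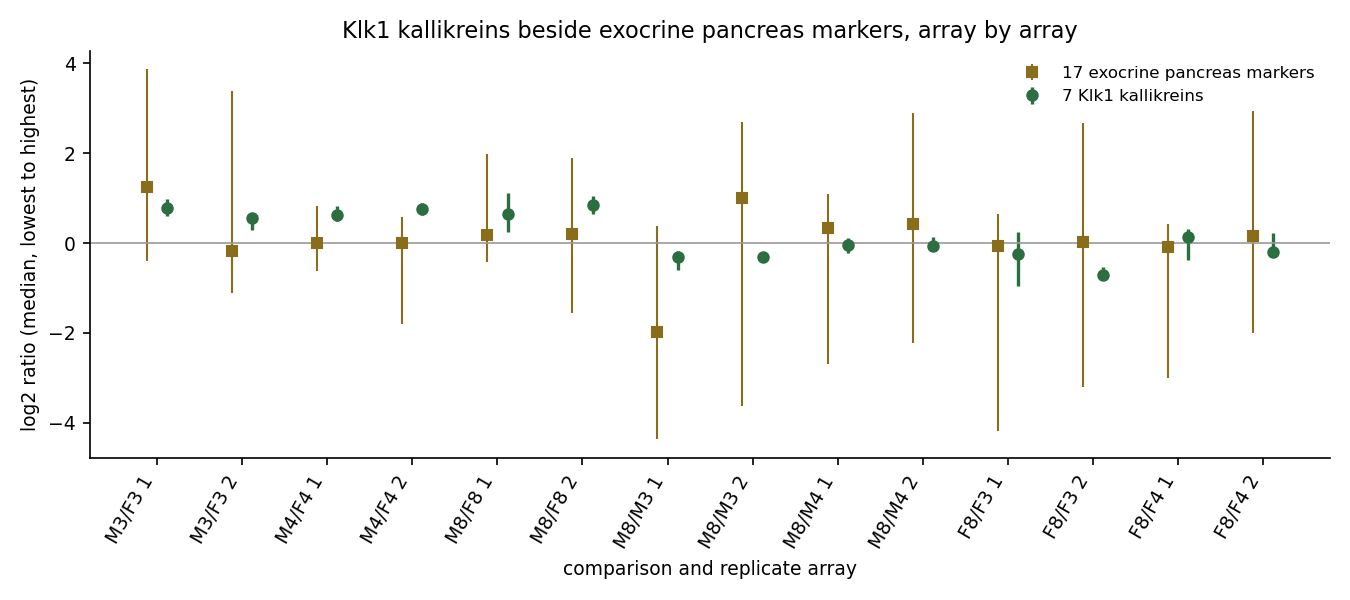
Log2 ratio on each of the 14 arrays for 17 exocrine pancreas markers (brown squares) and for the 7 brightly measured members (green circles), with medians and bars from the lowest to the highest value. On both M8/M3 arrays the members lie between -0.59 and -0.17, while the marker median is -1.98 on one and 1.00 on the other. Of the markers only 3 were well above background in every channel.

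Over the 14 arrays the genes outside the kallikreins whose ratios lay near to those of the Klk1 probe included Ces2e (root mean square difference 0.25), Bdnf (0.30), Patl2 (0.31) and Myef2 (0.31), among 16658 probes compared. For all probes the median distance was 0.60. Ces2e, a carboxylesterase, had fitted log2 ratios of male over female liver of 0.39 at 3 wk, 0.47 at 4 wk and 0.60 at 8 wk. Of the members, Klk1b8 was at 0.12 from Klk1 and Klk1b22 at 0.42, and 149 probes lay closer to Klk1 than Klk1b22 did.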

How the data were processed

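The authors hybridized Agilent whole mouse genome arrays with 2 colours and deposited the scanner output of Feature Extraction 10.7.1.1, whose headers name build mm9. The deposited intensities are spot and background medians and processed intensities, which the software had background-subtracted and dye-normalized (linear and LOWESS). The deposited log10 ratio is red over green of the processed intensities, and the deposited error of that ratio, modelled by the software, was used as a score. The log10 values that the authors deposited in the series table were equal to these ratios.

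Here ratios were converted to log2, turned by the dye labels to male over female or older over younger, and averaged over spots of a probe. The study's methods give the dyes of the first M3/F3 pair in the opposite order from the labels, and genes of the sex chromosomes lay on the side of the labels. Probes were named through RefSeq accessions (26055 of 39429 probes). The members and lists were chosen with earlier results of these data known.

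limma 3.58.1 in R 4.3.3 was fitted on all 14 arrays with 7 comparison coefficients and a dye term, with Benjamini-Hochberg adjustment over all probes and comparisons. The fit took the 14 ratios as independent, although pools of 1 number are taken to recur between comparisons. The standard errors and adjusted p may therefore overstate the precision. A call needed an adjusted p below 0.05, a ratio above 1.5 or below its inverse, and 1 group well above background on both arrays. The test was tried on simulated data. All 9 members are named, each by the probe of highest mean intensity with any other probe beside it, and exceptions are marked in the text. Markers are also named for being well above background in every channel or in none, as are both kinin receptors. Genes of other lists could be given with ratios only where called between the sexes or in at least 2 of the 4 age comparisons, along with the 5 genes nearest to Klk1 by root mean square difference, of which 1 is not reported here. Not every gene that met this condition with age is given. The alternatives changed the dye term, blocks, model, adjustment, thresholds, background correction (normexp with offset 50 on median intensities, since no mean intensities were used here) and the probe of a gene, and left out single arrays. Arrays of 1 number are taken to have used pools of 1 number in every comparison, which the labels do not state. The ratios around closed loops of such arrays differed by at most 0.27 on the log2 scale (median 0.08, 32 loops). These loops count 7 members and Klk1b24 separately, and no loops of mixed numbers were compared, so they do not establish the identity of the pools. Replicate, slide and dye change together within a comparison. Promoter windows were taken from RefSeq (GRCm38.p6), and coordinates were not transferred between builds.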

Additional observations from a re-analysis of the deposited data

How the results depend on the processing

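In M4/F4 some alternatives changed the estimate, namely 6 group means, the error-weighted average, normexp and loess, and 1 array left out. They gave log2 ratios of 0.43 to 0.86 for the 7 brightly measured members, above 0 in 35 of 35 values. These values reuse the same arrays for related probes, so they are not separate observations. On both M4/F4 arrays these members were already above 0, the lowest value being 0.48. The range therefore describes how far the estimate moved and adds no evidence of the male bias. The number of members called depended on the setting. Without the dye term M3/F3 had 3 members called, M4/F4 had 2 and F8/F3 had 0, where the reported counts are 5, 5 and 1. The replicate block in place of the dye term also gave 3, 2 and 0. With slide as a block 3 were called in M4/F4. Adjustment within each comparison gave 1 in M3/F3 and 3 in M4/F4. At an unadjusted p below 1e-04, 2 were called in each of the sex comparisons. With normexp and loess the count was 1 for M3/F3, 2 for M4/F4, 2 for M8/F8 and 0 for F8/F3, and the median log2 ratio was then 0.52, 0.50 and 0.55 in the sex comparisons. Without a fold threshold 2 were called in M8/M3 and 4 in F8/F3. Leaving out 1 array gave 1 to 5 members in M3/F3, 2 to 3 in M4/F4, 3 to 3 in M8/F8, 1 to 4 in F8/F3 and 0 elsewhere. No other planned setting changed these counts by over 1.5 times, nor did a fit on the 27387 bright probes alone, which was chosen after seeing the data. The cause of these differences was not tested, except that 1 array in place of 2 holds less information. Each comparison has 2 pools per group, and the number of arrays limits the precision.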
